A study of Mus musculus with 12 samples.

Results

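The step from progenitor to preadipocyte in the fat around the mouse thoracic aorta was described from 6 RNA-seq libraries, 3 of perivascular preadipocytes and 3 of perivascular progenitors, out of 12 libraries in the series. They were chosen by the sample names alone, and all genes that passed a filter on low counts were compared. The other 6 libraries, 3 of ICAM1+ preadipocytes and 3 of DPP4+ progenitors from inguinal white fat, enter where the perivascular step is set beside the inguinal step. All 4 groups came from wild-type CD-1 pups of both sexes, 3 days old, and the labels name no allele, transgene or treatment. Cells were freed with collagenase D and dispase II, sorted, and profiled by poly(A)-selected SMART-Seq v4 libraries for very small RNA inputs. Per the labels, each replicate number is 1 pool of mice, shared by both depots, so a library stands for a pool and not for an animal. The surface markers that separated perivascular preadipocytes from perivascular progenitors are not stated in any label or file here, so a gene described below may itself have been a sort marker.

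Adipocytes form from mesenchymal progenitors in steps. Interstitial progenitors of fat, marked in mouse by Dpp4 and Pi16, give rise to preadipocytes, in which PPARG and C/EBP factors switch on genes of lipid storage. In brown and perivascular fat of rodents the same steps also bring on mitochondria and the uncoupling protein UCP1, which turns the proton gradient into heat.

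Total counts ran from 15614628 to 17780457 in the preadipocyte libraries and from 16211157 to 18191251 in the progenitor libraries. Levels are given as TMM-scaled CPM (read counts set relative to the library total after edgeR's correction for composition) in the order of pools 1, 2 and 3. Changes are log2 fold changes of preadipocytes over progenitors with their standard error (SE), and a gene was called at an adjusted p under 0.05 in edgeR's quasi-likelihood test over 18855 genes. Of these genes, 6198 (32.9%) were called, 3168 (16.8%) of them higher and 3030 (16.1%) lower in preadipocytes. A change of at least 2-fold was called for 1813 genes (9.62%) higher and 1601 genes (8.49%) lower. The median change of all genes tested was -0.05. With library totals in place of TMM this median was 0.12, and 66.3% of the calls were higher, against 51.1% with TMM.

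Libraries of pool 1 lay closer to each other than those of the other pools. On the first principal component of the 6 libraries, computed from the 500 genes of highest variance and holding 78.4% of it, preadipocytes 1, 2 and 3 lay at 13.8, 31.5 and 39.96 and progenitors 1, 2 and 3 at -6.23, -38.3 and -40.8. The library of progenitor 1 had a higher correlation with preadipocyte 1 (0.967) than with progenitors 2 and 3 (0.956 with each), over genes and as a description. Genes called higher had median pool differences of 0.44, 1.13 and 1.51 in pools 1, 2 and 3, and genes called lower -0.52, -1.14 and -1.38. Without both pool 1 libraries 9696 genes were called, and without progenitor 3, preadipocyte 2 or preadipocyte 3 the count was 3916, 4028 or 3964. With the 6 perivascular libraries alone 2825 genes were called, and 85 when the pool was also a term. These fits have fewer libraries from which to estimate the spread, and the main fit estimated it from the inguinal libraries as well. Library weights in limma-voom are lower for noisier libraries. They were 0.197, 4.07 and 0.433 for preadipocytes 1, 2 and 3, and 0.2485, 1.52 and 1.31 for progenitors. Inguinal libraries had weights of 0.722 to 1.74. The part of unequal spread in the SEs and calls was not tested.

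Exon length moved with the change. Of the 14609 protein-coding genes tested, the 2920 with the shortest exons had a median change of 0.29 and the 2924 with the longest -0.28. The same medians were -0.0034 and -0.069 in pool 1, 0.35 and -0.29 in pool 2, and 0.60 and -0.43 in pool 3. The part of length, or of RNA quality, in the results below was not tested.

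**Figure D1:**
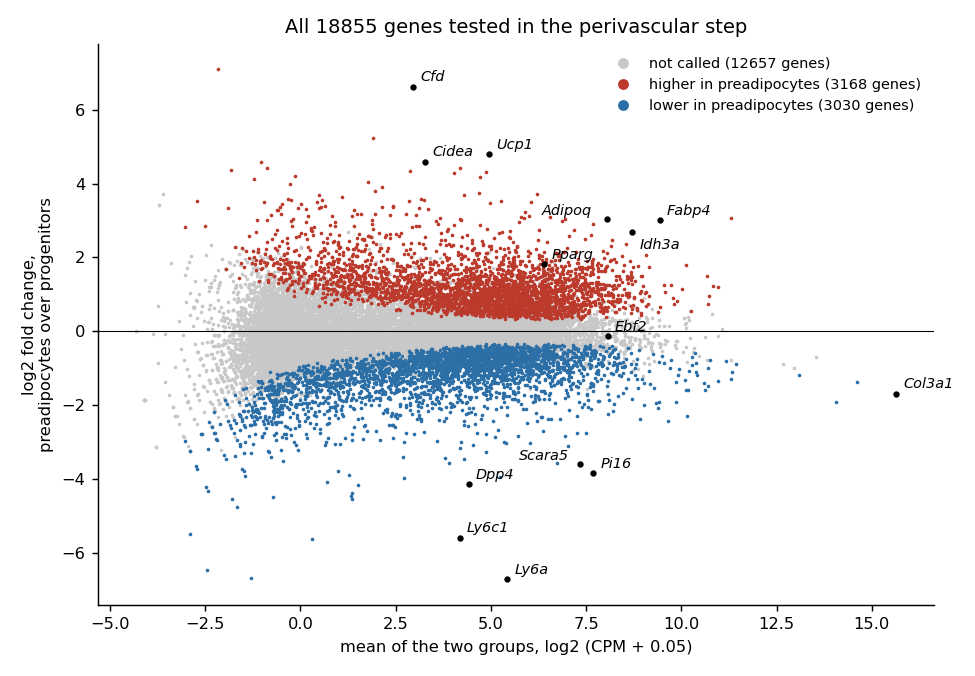
Log2 fold change of perivascular preadipocytes over progenitors (vertical axis) against the mean level of both groups (horizontal axis, log2 of CPM + 0.05) for all 18855 genes tested. Points in red (3168) were called higher and points in blue (3030) lower in preadipocytes, and Ly6a, Ly6c1 and Dpp4 lie lowest among the labelled genes, with Cfd, Ucp1 and Cidea at the top.

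Genes that mark interstitial fibroblast progenitors, mostly of surface and secreted proteins, had lower RNA levels: 18 of 20 interstitial progenitor markers were lower in preadipocytes with 0 higher (median -2.33), where 16.1% of all genes tested were lower. Ly6a, which encodes the stem cell antigen SCA-1, had 4.33, 3.23 and 4.99 CPM in preadipocytes, against 558, 397 and 359.6 CPM in progenitors (log2 -6.71, SE 0.26, adjusted p 5.66e-08). Its family member Ly6c1 had 2.26, 1.71 and 3.81 CPM in preadipocytes and 158, 115 and 101 CPM in progenitors (log2 -5.59, SE 0.30, adjusted p 4.79e-07). For both genes the groups lay far apart, and the library of preadipocyte 1 was within the range of its group. Dpp4, the dipeptidyl peptidase by which inguinal progenitors were sorted, had 5.41, 7.14 and 2.68 CPM in preadipocytes and 88.9, 97.2 and 82.1 CPM in progenitors (log2 -4.13, SE 0.29, adjusted p 5.67e-06). Pi16, a peptidase inhibitor that marks adventitial and interstitial fibroblasts, had 104, 36.8 and 21.6 CPM in preadipocytes and 743, 811 and 771 CPM in progenitors (log2 -3.84, SE 0.45, adjusted p 0.000176). The groups did not overlap, but preadipocyte 1 kept the highest Pi16 level of its group, and the change was -4.76 without that library. Cd55, a complement decay factor, had 8.5, 9.88 and 9.66 CPM in preadipocytes and 93.8, 85.7 and 92.6 CPM in progenitors (log2 -3.28, SE 0.15, adjusted p 9.51e-08), with little spread in either group.

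Other genes among the 12 largest falls were the ferritin receptor gene Scara5 (54.3, 51.6 and 34.3 CPM in preadipocytes, 483, 573 and 622 in progenitors, log2 -3.58, SE 0.20, adjusted p 7.07e-07), Lrrn4cl (log2 -3.93, adjusted p 5.66e-08), the aldo-keto reductase gene Akr1c18 (log2 -4.37, adjusted p 5.67e-06), the adhesion gene Cadm3 (log2 -4.16, adjusted p 5.97e-05), the sphingomyelinase gene Smpd3 (log2 -3.57, adjusted p 1.08e-05), the complement gene C7 (log2 -3.96, adjusted p 2.4e-05) and Krtdap (log2 -4.45, adjusted p 7.56e-06). Ren1, the gene of renin, which is also made by cells of vessel walls, had 0.934, 0.293 and 0.268 CPM in preadipocytes and 17.97, 11.2 and 5.95 CPM in progenitors (log2 -4.52, SE 0.80, adjusted p 0.00164). Groups without overlap were part of how these genes were chosen, and 40.8% of all genes tested had such groups in either direction. Ren1 varied more among progenitors than the others, with pool 1 the highest, and its change was -5.36 without preadipocyte 1.

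Fibroblast markers fell with them: 11 of 14 were lower and 0 higher in preadipocytes (median -1.58). Pdgfra, the PDGF receptor that marks fat progenitors and fibroblasts, had 239.6, 164 and 118 CPM in preadipocytes and 388, 665 and 716 CPM in progenitors (log2 -1.76, SE 0.28, adjusted p 0.000927). Its lowest progenitor library, that of pool 1, was still above the highest preadipocyte library. In libraries of many cells, fewer cells of a type and less RNA per cell cannot be told apart. The 14 mesothelial markers moved the same way, with 7 lower and 1 higher, and took 0.0143, 0.0189 and 0.0123% of all counts in preadipocytes against 0.0212, 0.0349 and 0.0284% in progenitors. Their part in the progenitor profile was not tested.

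**Figure D2:**
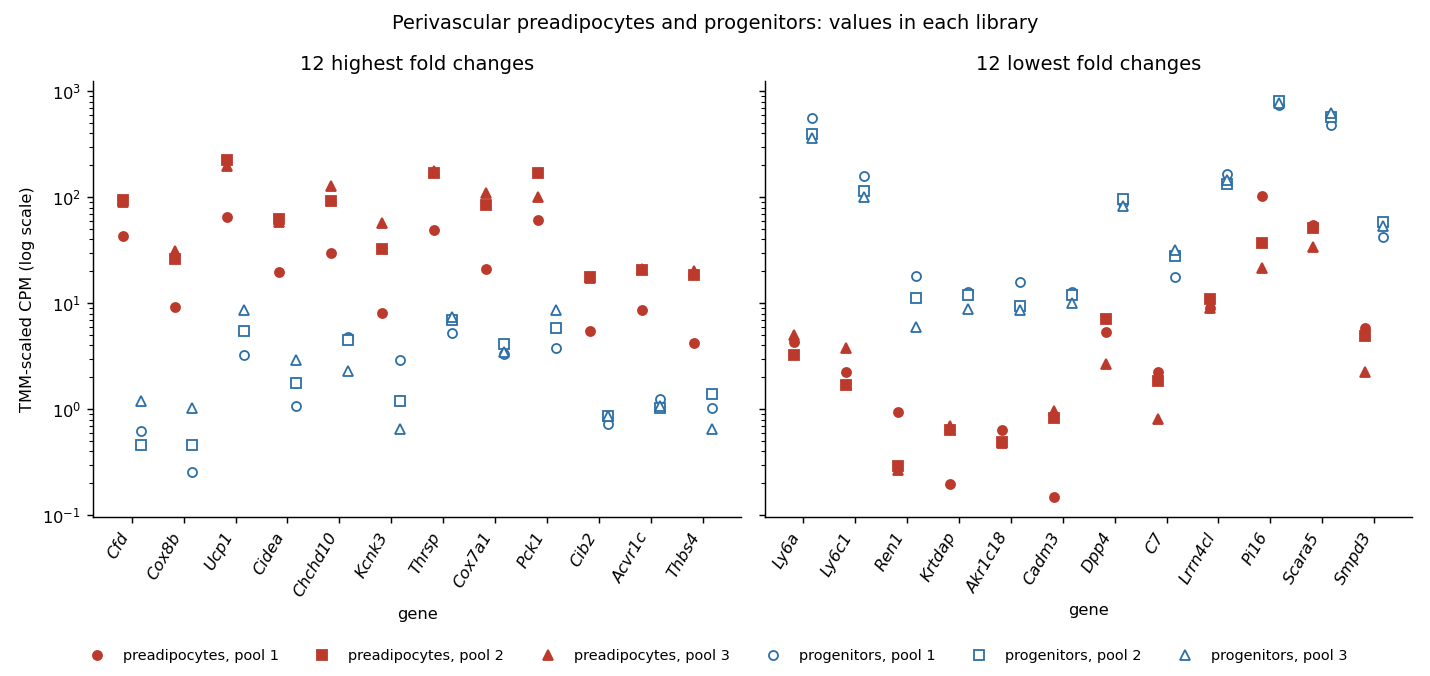
TMM-scaled CPM (log axis) of the 12 genes with the highest and the 12 with the lowest fold changes, taken from called genes whose groups do not overlap and whose higher group has at least 10 CPM, 1 point per library. Filled red symbols are preadipocytes and open blue symbols progenitors. Separate groups are part of how the genes were chosen, and preadipocyte 1 (filled circle) lies lowest of its group for all 12 genes on the left.

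Of 19 committed preadipocyte markers, most of which are known from inguinal fat, 3 were higher in perivascular preadipocytes and 8 were lower (median -0.56), which goes against the name of the list. The members that were higher were Fabp4, Cd36 and Pparg. Fabp4, a fatty acid carrier of adipocytes, had 727, 2303 and 2856 CPM in preadipocytes and 237, 266 and 225 CPM in progenitors (log2 3.01, SE 0.42, adjusted p 0.000462). Cd36, the fatty acid translocase, had 279.8, 583 and 608 CPM in preadipocytes and 59.6, 88.1 and 94.8 CPM in progenitors (log2 2.60, SE 0.33, adjusted p 0.000276). Icam1, the adhesion molecule by which inguinal preadipocytes were sorted, was lower, with 52.9, 35.1 and 30.4 CPM in preadipocytes and 90.3, 102 and 95.4 CPM in progenitors (log2 -1.28, SE 0.22, adjusted p 0.00143). Dlk1, a membrane protein that holds back adipogenesis in mouse cells, was also lower, with 812, 941 and 951 CPM in preadipocytes and 1821, 1878 and 1374 CPM in progenitors (log2 -0.91, SE 0.18, adjusted p 0.00279). Zfp521, the member of the list that fell most, encodes a zinc finger repressor of adipogenesis, so its fall need not go against the name. It fell by 2.03 on the log2 scale (adjusted p 0.00148), and by 2.76 without preadipocyte 1. With the 6 perivascular libraries alone, 5 members were lower and 3 higher.

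Transcription factors of adipogenesis and brown fat were more often higher than lower, with 13 of 26 called higher and 3 lower (median 0.95). Pparg, the main driver of fat cell differentiation, had 96.2, 187 and 191 CPM in preadipocytes and 52.2, 41.7 and 40.3 CPM in progenitors (log2 1.82, SE 0.26, adjusted p 0.000492). Its partner Cebpa had 12.1, 36.96 and 45.5 CPM in preadipocytes and 10.996, 3.97 and 3.52 CPM in progenitors (log2 2.35, SE 0.48, adjusted p 0.00338). The groups were separate for both, but in pool 1 Cebpa differed little between the cell types, and the change was 3.01 without progenitor 1. The coactivator gene Ppargc1a, which drives the making of mitochondria, had 17.6, 43.5 and 38.6 CPM in preadipocytes and 3.82, 4.43 and 4.27 CPM in progenitors (log2 2.99, SE 0.43, adjusted p 0.000527). Its relative Ppargc1b (log2 2.46, adjusted p 0.000832), the retinoid X receptor gene Rxrg (log2 2.90, adjusted p 0.000446) and Ppara, which encodes a receptor that switches on fatty acid oxidation (log2 2.47, adjusted p 0.000526), were also higher.

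Prdm16 and Ebf2 are known to specify brown fat in mouse. Prdm16 was higher, with 8.996, 18.9 and 23.01 CPM in preadipocytes and 5.63, 9.44 and 11.1 CPM in progenitors (log2 0.96, SE 0.32, adjusted p 0.0367). Its groups overlapped, although within pools 1, 2 and 3 the preadipocyte library was higher by 0.67, 0.99 and 1.04 on the log2 scale. The call was lost without progenitor 1, progenitor 2, preadipocyte 2 or preadipocyte 3 (adjusted p 0.105, 0.0847, 0.116 and 0.199) and without any 1 ICAM1+ library (0.0512, 0.0521 and 0.0513). Ebf2, a factor that marks brown fat progenitors in mouse, had 189, 301 and 276 CPM in preadipocytes and 236, 306 and 299.6 CPM in progenitors (log2 -0.14, SE 0.17, adjusted p 0.584). It was not called, its groups overlapped, and both had mean levels above those of the inguinal groups (127 ± 6.11 CPM in ICAM1+ preadipocytes and 123 ± 6.52 CPM in DPP4+ progenitors, SD, n = 3 each), a difference that was not tested here.

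Genes of lipid storage and release were higher in preadipocytes, with 13 of 17 lipid droplet genes and 11 of 16 lipolysis genes called higher and 0 lower (medians 1.76 and 1.62). Cidec, whose protein fuses lipid droplets, had 43.01, 133 and 108 CPM in preadipocytes and 4.34, 7.08 and 9.58 CPM in progenitors (log2 3.76, SE 0.89, adjusted p 0.00734). Its relative Cidea had 19.7, 62.04 and 58.3 CPM in preadipocytes and 1.08, 1.78 and 2.92 CPM in progenitors (log2 4.59, SE 0.51, adjusted p 0.000123). Plin1, the coat protein of large droplets, had 57.02, 178 and 157 CPM in preadipocytes and 18.3, 7.94 and 7.57 CPM in progenitors (log2 3.53, SE 0.48, adjusted p 0.000401). In each case the progenitors were low and preadipocyte 1 lay between them and the other preadipocytes. Plin5, found on droplets of oxidative tissues (log2 3.55, adjusted p 0.00141), the protein kinase A subunit gene Prkar2b (log2 3.73, adjusted p 0.000526), the glycerol channel gene Aqp7 (log2 2.66, adjusted p 0.000478) and the beta-3 adrenergic receptor gene Adrb3 (log2 3.37, adjusted p 0.000404) were higher too. The change of Prkar2b was 4.59 without progenitor 1, and 24.9% of the exon length of Adrb3 overlaps another gene. Without progenitor 3, only 7 lipolysis genes were called. Of 20 genes of fatty acid uptake and synthesis, 6 were higher and 0 lower (median 0.40), led by Thrsp, a regulator of lipid synthesis, with 49.3, 168 and 176 CPM in preadipocytes and 5.21, 7.02 and 7.47 CPM in progenitors (log2 4.32, SE 0.47, adjusted p 0.000106), and by the acyl-CoA synthetase gene Acsl1 (log2 2.26, adjusted p 0.000601).

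Adipokines, the hormones of fat cells, were higher for 7 of 9 genes with 0 lower (median 2.33). Cfd, the complement factor adipsin, had the highest rise among the genes named, with 43.1, 93.6 and 90.4 CPM in preadipocytes and 0.62, 0.461 and 1.19 CPM in progenitors (log2 6.63, SE 1.16, adjusted p 0.00154). Adipoq, the gene of adiponectin, had 322, 872 and 1095 CPM in preadipocytes and 90.4, 95.9 and 91.2 CPM in progenitors (log2 3.04, SE 0.60, adjusted p 0.00273). Retn, the gene of resistin (log2 3.54, adjusted p 0.00158), and Lep, the gene of leptin (log2 2.96, adjusted p 0.00994), were also higher, Lep at 2.26, 7.53 and 5.2 CPM in preadipocytes and 0.568, 0.633 and 0.703 CPM in progenitors. All 12 mature adipocyte markers were called higher (median 3.06) and took 0.48, 1.32 and 1.41% of the counts of preadipocytes against 0.103, 0.122 and 0.114% of those of progenitors. Most of this share in every library was Car3, a gene of fat and muscle whose levels are given below. The cells labelled preadipocytes thus also held the RNA of genes that mark mature fat cells. Pck1, whose enzyme makes glycerol for triglycerides in fat, had 60.5, 169 and 101 CPM in preadipocytes and 3.82, 5.87 and 8.6 CPM in progenitors (log2 4.18, SE 0.63, adjusted p 0.000673).

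Of 18 thermogenic genes, 9 were higher and 2 lower (median 1.39), where 16.8% of all genes tested were higher. Ucp1 (chr8:83290352-83298452, + strand, mm10) had 64.8, 225 and 195 CPM in preadipocytes and 3.25, 5.53 and 8.66 CPM in progenitors (log2 4.80, SE 0.47, adjusted p 5.6e-05). Cox8b, a cytochrome c oxidase subunit of brown fat and heart, had 9.24, 26.2 and 31.01 CPM in preadipocytes and 0.258, 0.461 and 1.03 CPM in progenitors (log2 5.24, SE 0.62, adjusted p 0.000183, and 5.93 without progenitor 3). Cox7a1, another such subunit, had 21.2, 83.9 and 109 CPM in preadipocytes and 3.3, 4.14 and 3.46 CPM in progenitors (log2 4.30, SE 0.47, adjusted p 0.000111). Every preadipocyte library lay above every progenitor library for these genes, which was part of how the 12 largest rises were chosen. Preadipocyte 1 was the lowest of its group for each of them. Kcnk3, a potassium channel gene, had 8.06, 32.2 and 56.97 CPM in preadipocytes and 2.89, 1.21 and 0.649 CPM in progenitors (log2 4.34, SE 0.76, adjusted p 0.00153), and its change was 5.06 without progenitor 1 and 3.64 without preadipocyte 3. The mitochondrial gene Chchd10 (log2 4.43, adjusted p 0.000404), the activin-like receptor gene Acvr1c (log2 3.90, adjusted p 5.6e-05), Cib2 (log2 4.04, adjusted p 0.000171) and the matrix gene Thbs4 (log2 3.80, adjusted p 0.000824) completed the 12 largest rises.

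Nearly all genes of mitochondrial energy metabolism were higher in preadipocytes. The counts called higher were 18 of 20 for fatty acid oxidation (median 1.63), 17 of 18 for the tricarboxylic acid cycle (1.499), 35 of 36 for nuclear genes of respiratory complex I (1.56), 36 of 37 for those of complexes III to V (1.68) and 50 of 51 for the mitochondrial ribosome (1.30). The 1 gene of these lists called lower was Cpt1a, a carnitine palmitoyltransferase (log2 -1.22, adjusted p 0.00572), which was chosen after its value was seen. Idh3a, a subunit of the isocitrate dehydrogenase of the cycle, had 494, 1318 and 1382 CPM in preadipocytes and 141, 179 and 179 CPM in progenitors (log2 2.68, SE 0.31, adjusted p 0.000153). Acadl, the long-chain acyl-CoA dehydrogenase, had 171, 393 and 417 CPM in preadipocytes and 70.005, 46.6 and 46.04 CPM in progenitors (log2 2.59, SE 0.30, adjusted p 0.000171). Cox5a, a cytochrome c oxidase subunit, had 65.2, 167 and 249 CPM in preadipocytes and 22.3, 22.2 and 12.1 CPM in progenitors (log2 3.09, SE 0.42, adjusted p 0.000404). For all of these every preadipocyte library lay above every progenitor library, and preadipocyte 1 was the lowest of its group. The Rieske protein gene Uqcrfs1 (log2 2.91, adjusted p 0.000562), the succinate dehydrogenase gene Sdhd (log2 1.91, adjusted p 0.00055), Mdh2 of the cycle (log2 1.76, adjusted p 0.000365), Eci1 of fatty acid oxidation (log2 2.08, adjusted p 0.000485), the complex I genes Ndufc2 (log2 2.15, adjusted p 0.00055) and Ndufs7 (log2 1.80, adjusted p 0.000936) and the mitochondrial ribosomal gene Mrpl34 (log2 2.06, adjusted p 0.00117) followed the same pattern.

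Genes encoded in mitochondrial DNA were higher for 10 of 13 (median 1.11), with a median near 0 in pool 1. mt-Nd1, a complex I subunit, had 1435, 3168 and 3751 CPM in preadipocytes and 1367, 1051 and 1175 CPM in progenitors (log2 1.22, SE 0.28, adjusted p 0.0061). mt-Cytb had 1665, 3415 and 3927 CPM in preadipocytes and 1520.4, 1170.2 and 1257 CPM in progenitors (log2 1.19, SE 0.26, adjusted p 0.00492). For both, preadipocyte 1 was close to progenitor 1, while the other preadipocyte libraries were far higher. Without progenitor 3, preadipocyte 2 or preadipocyte 3, the count was 5 in each case, and with the 6 perivascular libraries alone it was 2. The pool differences of the list were 0.042, 1.09 and 1.64 in pools 1, 2 and 3, beside 0.55, 1.63 and 2.22 for complex I and 0.58, 1.73 and 2.42 for complexes III to V.

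Glycolysis genes were mostly higher as well, 16 of 22 with 1 lower (median 1.11). Ldhb, a lactate dehydrogenase subunit, had 297, 639.5 and 653 CPM in preadipocytes and 123, 111 and 115 CPM in progenitors (log2 2.19, SE 0.25, adjusted p 0.000162). Slc2a4, the insulin-responsive glucose transporter GLUT4, had 29.1, 51.7 and 39.7 CPM in preadipocytes and 8.42, 10.7 and 10.3 CPM in progenitors (log2 2.03, SE 0.32, adjusted p 0.000891). Pdk4, a kinase that shuts pyruvate out of the cycle, was higher too (log2 1.66, adjusted p 0.000711). Of 19 cholesterol synthesis genes, 5 were higher and 0 lower (median 0.35), where 16.8% of all genes tested were higher. The 5 included Pmvk (log2 1.40, adjusted p 0.00117) and Idi1 (log2 0.77, adjusted p 0.00344), and the count was 3 without progenitor 2.

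All 42 cytosolic ribosomal protein genes were called higher (median 1.16), by 0.26, 1.02 and 1.90 in pools 1, 2 and 3. Rplp2 had 141, 295 and 434 CPM in preadipocytes and 89.7, 109 and 69.1 CPM in progenitors (log2 1.70, SE 0.33, adjusted p 0.00251), and Rps16 had 145, 268 and 397 CPM in preadipocytes and 103, 109 and 79.3 CPM in progenitors (log2 1.48, SE 0.29, adjusted p 0.0026). With the 6 perivascular libraries alone 19 of them were called. Ribosomal protein genes share reads with many processed pseudogenes, so their values are uncertain. Of 1337 processed pseudogenes tested, 334 were higher and 20 lower (median 0.74). Transcripts of other kinds had more lower than higher calls, but their lower shares were not above the 16.1% of all genes tested. Of 627 lincRNAs 94 (15%) were lower and 37 (5.90%) higher, of 574 antisense genes 70 (12.2%) were lower and 18 (3.14%) higher, and of 863 genes of the annotation class TEC (transcripts awaiting experimental proof) 119 (13.8%) were lower and 6 (0.695%) higher.

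Ribosomal and respiratory genes are short, and collagen genes long. The median exon length was 1532 bases for complex I, 1675 for complexes III to V, 2011 for the cytosolic ribosome, and 8326 for the fibrillar collagens. Other lists paired length and direction differently. The median was 2428 bases for chemokine and complement genes (13 of 21 lower) and 2936 for small leucine-rich proteoglycan genes (6 of 10 lower). It was 3084 for fibroblast markers (11 of 14 lower) and 4520 for mitosis genes (27 of 28 higher). Of the 2920 shortest coding genes (up to 2475 bases) 31.2% were called higher and 9.76% lower, and of the 2924 longest (from 7657 bases) 8.72% were higher and 26.5% lower. Cardiac muscle markers, from another tissue rich in mitochondria that lies next to the aorta, rose with the respiratory genes: Actc1 had 4.03, 24.4 and 43.6 CPM in preadipocytes and 3.2, 1.84 and 3.03 CPM in progenitors (log2 3.15, SE 0.71, adjusted p 0.00571). Myl7 (log2 3.17, adjusted p 0.00562) and Tnnt2 (log2 3.14, adjusted p 0.00744) did the same, and their changes were 2.37, 2.24 and 2.32 without preadipocyte 3, in the order Actc1, Myl7 and Tnnt2. The list of 10 skeletal and cardiac muscle markers had 5 higher and 1 lower, or 3 higher without progenitor 2, preadipocyte 2 or preadipocyte 3, and took 0.00302, 0.0106 and 0.0176% of counts in preadipocytes against 0.00266, 0.00293 and 0.00272% in progenitors. The part of muscle RNA was not tested.

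Of the genes of the extracellular matrix, in 6 lists examined, between 6 and 12 members of each list were called lower in preadipocytes and 0 higher. Of all genes tested 16.1% were lower. Outside these lists, the matrix gene Thbs4 was higher (log2 3.80, adjusted p 0.000824). Among 13 genes of fibrillar and associated collagens, 11 were lower and 0 higher (median -1.31), and the list took 11.6, 5.55 and 3.87% of all counts in preadipocytes against 13.3, 21.6 and 21.9% in progenitors. Col3a1, a main collagen of vessel walls and fat stroma, had 47234, 22325 and 16124 CPM in preadipocytes and 65299.9, 100230.0 and 110258 CPM in progenitors (log2 -1.69, SE 0.40, adjusted p 0.00724). Col1a1 had 15537, 6759 and 4204 CPM in preadipocytes and 18219, 42917 and 38002 CPM in progenitors (log2 -1.90, SE 0.45, adjusted p 0.00731). For both, pool 1 showed a small difference and pools 2 and 3 a large one, and the changes were -2.30 and -2.63 without preadipocyte 1. Col5a3, which regulates fibril diameter, had 64.99, 67.3 and 73.7 CPM in preadipocytes and 197, 444 and 372 CPM in progenitors (log2 -2.30, SE 0.24, adjusted p 8.79e-05), and its preadipocyte libraries were alike. Col14a1 was lower (log2 -1.60, adjusted p 0.00805), and its change was -2.42 without preadipocyte 1. With the 6 perivascular libraries alone, 2 members of the list were called. Col3a1, Col1a2, Col1a1 and Sparc were among the 5 most abundant genes by CPM in both groups. Col1a2 was lower (log2 -1.37, adjusted p 0.0231, and -2.16 without preadipocyte 1), a call that was lost without progenitor 2, progenitor 3, preadipocyte 2 or preadipocyte 3 (adjusted p 0.0513, 0.0741, 0.0948 and 0.0610). Sparc, a collagen-binding glycoprotein, was not called (log2 -0.69, adjusted p 0.0866). Also among the 5 of preadipocytes was Car3, a carbonic anhydrase of fat and muscle, with 3439, 8704 and 9738 CPM in preadipocytes and 795, 911 and 898 CPM in progenitors (log2 3.07, SE 0.38, adjusted p 0.000229).

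Of 23 elastic fibre and adhesive glycoprotein genes, 10 were lower and 0 higher (median -0.87), and 22 were lower without preadipocyte 1. Fn1, the gene of fibronectin, had 796, 419.9 and 325 CPM in preadipocytes and 1423, 3159 and 2939 CPM in progenitors (log2 -2.29, SE 0.36, adjusted p 0.000906). Efemp1, a fibulin, had 28.3, 35.3 and 33.7 CPM in preadipocytes and 219, 209 and 199 CPM in progenitors (log2 -2.68, SE 0.16, adjusted p 1.34e-06), with no pool apart from the others. Fbln2 (log2 -1.93, adjusted p 0.000162) and the fibrillin gene Fbn1 (log2 -1.90, adjusted p 0.00102, and -2.52 without preadipocyte 1) were also lower. Small leucine-rich proteoglycans, which bind collagen fibrils, were lower for 6 of 10 genes (median -0.95), among them Dcn (log2 -1.19, adjusted p 0.00169) and Ogn (log2 -1.18, adjusted p 0.00201). The crosslinking genes Loxl4 (log2 -2.26, adjusted p 0.000507) and Loxl2 (log2 -1.65, adjusted p 0.00203) were among 6 of 18 collagen processing genes called lower, where 16.1% of all genes tested were lower. The count of 6 became 13 without preadipocyte 1 and 3 without preadipocyte 2. Matrix proteases and their inhibitors were lower for 12 of 17, such as Adamts5 (log2 -1.75, adjusted p 0.000376) and Adamts12 (log2 -1.26, adjusted p 0.00117), or 7 without progenitor 3, preadipocyte 2 or preadipocyte 3. Basement membrane genes were lower for 7 of 16, with Nid1 (log2 -1.58, adjusted p 0.00334) and Lama2 (log2 -1.44, adjusted p 0.00661), and 14 were lower without both pool 1 libraries.

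**Figure D3:**
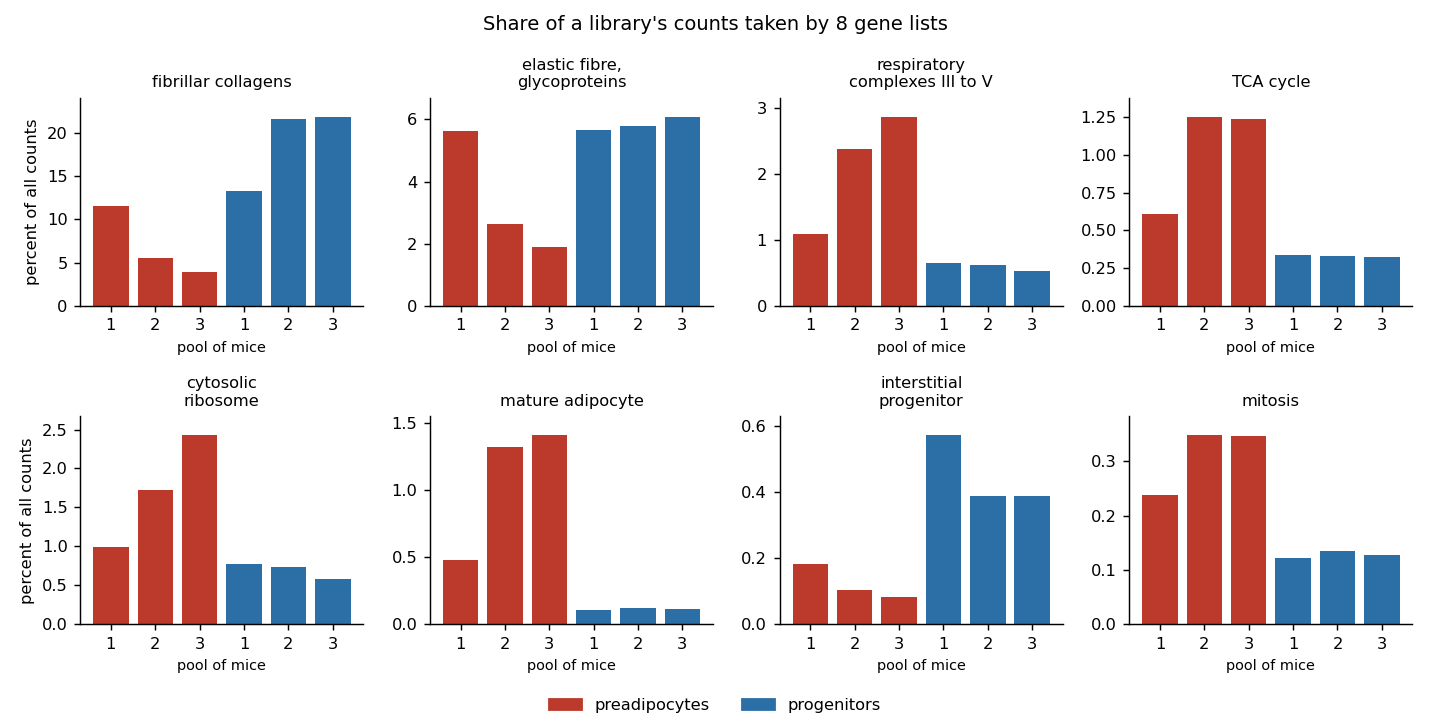
Percent of all counts of a library taken by the genes of 8 lists, with preadipocytes in red and progenitors in blue and the pool of mice on the horizontal axis. Fibrillar collagens took 11.6, 5.55 and 3.87% in preadipocytes against 13.3, 21.6 and 21.9% in progenitors, while mature adipocyte markers took 0.480, 1.32 and 1.41% against 0.103, 0.122 and 0.114%. Most of the mature adipocyte share is Car3.

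The Wnt, BMP, TGF-beta, Hedgehog, retinoid and IGF lists all held more lower than higher calls, where 16.1% of all genes tested were lower and 16.8% higher. In the Wnt pathway, which holds back adipogenesis, 7 of 32 ligands, receptors and antagonists were lower and 2 higher (12 and 2 without preadipocyte 1). Wnt2 had 2.51, 1.76 and 1.66 CPM in preadipocytes and 23.4, 18.998 and 20.3 CPM in progenitors (log2 -3.40, SE 0.20, adjusted p 9.69e-07). Wnt10b, a ligand known to block fat formation in mice, had 0.0983, 0.196 and 0.161 CPM in preadipocytes and 2.12, 1.44 and 0.866 CPM in progenitors (log2 -3.23, SE 0.45, adjusted p 0.000476). Wnt10b was low in all libraries, and its groups did not overlap. The Wnt target and receptor gene Lgr5 was lower (log2 -1.61, adjusted p 0.000699). It was the 1 called lower of 9 Wnt feedback target genes tested, and 1 other was called higher (list median -0.21). The secreted antagonist gene Sfrp5 was higher at 0.688, 2.3 and 1.5 CPM in preadipocytes against 0.258, 0.115 and 0 CPM in progenitors (log2 3.498, SE 0.87, adjusted p 0.00937, and log2 4.52 without progenitor 1). The median of the list of 32 Wnt ligands, receptors and antagonists was -0.30. It was above 0 without progenitor 1 and in limma-voom with library weights, so no direction is given for that list as a whole.

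BMP ligands, receptors and antagonists were lower for 11 of 28 genes and higher for 2 (median -0.502), or lower for 6 without progenitor 3 and 7 without preadipocyte 2. Bmp7, known for driving brown fat formation in mice, had 0.934, 0.44 and 0.429 CPM in preadipocytes and 18.9, 4.2 and 3.79 CPM in progenitors (log2 -3.88, SE 0.62, adjusted p 0.000946). Progenitor 1 was the highest of all for Bmp7, and the change was -2.76 without it. Grem1, which encodes a secreted BMP antagonist, was lower, with 0.0983, 0.196 and 0.0536 CPM in preadipocytes and 0.774, 1.04 and 0.812 CPM in progenitors (log2 -2.82, SE 0.55, adjusted p 0.00271). Of 20 TGF-beta and activin genes, 10 were lower and 0 higher (median -0.57), including the receptor gene Tgfbr2 (log2 -1.40, adjusted p 0.00695, and -2.08 without preadipocyte 1) and its coreceptor gene Eng (log2 -1.61, adjusted p 0.000894). That count was 6 without progenitor 2, preadipocyte 2 or preadipocyte 3.

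Among FGF genes 4 of 18 were lower and 3 higher, not far from the 16.1% lower and 16.8% higher of all genes tested. Fgf1 had 1.13, 2.005 and 0.697 CPM in preadipocytes and 7.95, 9.15 and 5.73 CPM in progenitors (log2 -2.56, SE 0.32, adjusted p 0.000272). Fgf7 (log2 -1.18, adjusted p 0.000601) and Fgf2 (log2 -1.10, adjusted p 0.00269) were lower as well, and the 3 higher members, 1 with the pool as a term, held no FGF ligand. The PDGF ligand gene Pdgfc was higher, with 10.6, 15.5 and 16.6 CPM in preadipocytes and 4.34, 4.89 and 5.57 CPM in progenitors (log2 1.53, SE 0.23, adjusted p 0.000668), while its receptor gene Pdgfra was lower. Of 7 PDGF genes 2 were higher and 3 lower, or 1 and 1 without preadipocyte 2. In the Hedgehog pathway, which holds back fat formation in mouse, 5 of 11 genes were lower and 0 higher (median -0.86), or 3 without preadipocyte 2 or preadipocyte 3 and 1 with the 6 perivascular libraries alone. The coreceptor gene Cdon had 28.8, 27.2 and 26.7 CPM in preadipocytes and 70.7, 97.4 and 87.6 CPM in progenitors (log2 -1.63, SE 0.18, adjusted p 0.000123), and its partner Boc was lower (log2 -1.41, adjusted p 0.00526, and -2.04 without preadipocyte 1).

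Retinoid genes gave 6 of 17 lower and 3 higher (median -0.56). Aldh1a3, an enzyme that makes retinoic acid, had 5.85, 6.89 and 6.76 CPM in preadipocytes and 47.7, 55.2 and 52.1 CPM in progenitors (log2 -2.99, SE 0.14, adjusted p 9.51e-08). A second such gene, Aldh1a2 (log2 -1.36, adjusted p 0.00409), and the receptor gene Rarg (log2 -2.06, adjusted p 0.000193) were lower too. In the IGF and insulin list 12 of 21 were lower and 2 higher (median -0.97). The IGF binding protein gene Igfbp5 had 35.1, 32.95 and 25.5 CPM in preadipocytes and 213, 444 and 443 CPM in progenitors (log2 -3.55, SE 0.29, adjusted p 1.32e-05), and Igfbp6 had 23.6, 29.7 and 25.1 CPM in preadipocytes and 170.1, 143 and 121 CPM in progenitors (log2 -2.47, SE 0.19, adjusted p 1.05e-05). Irs4, an insulin receptor substrate, was higher, with 23.5, 43.03 and 48.3 CPM in preadipocytes and 3.87, 6.62 and 6.28 CPM in progenitors (log2 2.78, SE 0.43, adjusted p 0.000853). Of 14 Notch genes the target gene Hey1 was the 1 called (log2 0.94, adjusted p 0.005, higher), and 3 were higher without progenitor 1. The angiopoietin gene Angpt1 was higher (log2 1.15, adjusted p 0.00781) while its receptor gene Tek was lower at 20.7, 13.5 and 8.58 CPM in preadipocytes against 97.3, 109.6 and 137 CPM in progenitors (log2 -3.004, SE 0.27, adjusted p 2.91e-05).

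Chemokine and complement genes were lower in preadipocytes, 13 of 21 with 2 higher (median -0.995), and by nearly the same amount in each pool (-0.99, -1.02 and -1.09). Of all genes tested 16.1% were lower and 16.8% higher. The complement factor gene Cfd, outside this list, was higher (log2 6.63, adjusted p 0.00154). Il33, an alarmin cytokine of stromal cells, had 178, 93.9 and 76.6 CPM in preadipocytes and 398, 392 and 497 CPM in progenitors (log2 -1.88, SE 0.26, adjusted p 0.000445). The complement gene C4b had 44.1, 31.1 and 24.8 CPM in preadipocytes and 101, 191 and 174 CPM in progenitors (log2 -2.22, SE 0.29, adjusted p 0.000332). Both genes separated the groups, with preadipocyte 1 nearest to the progenitors. Csf1, the growth factor of macrophages, was lower as well (log2 -1.61, adjusted p 0.000446). Interferon response genes were lower for 8 of 23 and higher for 3 (median -0.56), or higher for 1 with the pool as a term, among them Oasl2 (log2 -1.70, adjusted p 0.000425) and Irf7 (log2 -1.12, adjusted p 0.00152). Immediate early genes, which tissue digestion can switch on, were lower for 6 of 22 and higher for 0 (median -0.39), such as Fosl2 (log2 -0.82, adjusted p 0.00487) and Atf3 (log2 -0.59, adjusted p 0.00798), and 11 were lower without preadipocyte 1. The part of the digestion in the other results was not tested.

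Genes of mitosis and DNA replication were more often higher than lower in preadipocytes. Among 28 mitosis genes 27 were called higher and 0 lower (median 1.001), and among 28 DNA replication genes 23 were higher and 0 lower (median 0.92). The median of the mitosis list differed by 0.85, 1.07 and 1.02 in pools 1, 2 and 3 and so, unlike those of the mitochondrial lists, by a like amount in each pool. Birc5, Cenpa and Ube2c, named next, differed least in pool 1 and most in pool 3. Birc5, the gene of survivin, had 97.1, 177 and 245 CPM in preadipocytes and 43.1, 46.2 and 43.2 CPM in progenitors (log2 1.97, SE 0.28, adjusted p 0.000517). Cenpa, the histone of centromeres, had 78.6, 129.7 and 163 CPM in preadipocytes and 35.98, 39.9 and 35.98 CPM in progenitors (log2 1.73, SE 0.27, adjusted p 0.000814). Ube2c, an enzyme that marks cyclins for breakdown, had 88.98, 149 and 207 CPM in preadipocytes and 52.1, 45.4 and 38.4 CPM in progenitors (log2 1.71, SE 0.26, adjusted p 0.000674). Every preadipocyte library was above every progenitor library for each of these. Of genes that act earlier in the cycle, Ccna2 (log2 1.99, adjusted p 0.0028), Ccne1 (log2 1.90, adjusted p 0.00225, and 2.58 without progenitor 1), the replication gene Gins1 (log2 1.82, adjusted p 0.000545) and the ribonucleotide reductase gene Rrm2 (log2 1.70, adjusted p 0.000272) were higher. The cyclin and CDK inhibitor genes moved both ways, with 7 of 14 higher and 4 lower (median 0.43). With 1 library left out 3 to 8 were higher, with 3 without progenitor 3 or preadipocyte 3 and 4 without progenitor 2 or preadipocyte 2. Lower were 4 without preadipocyte 1, 1 without preadipocyte 2 or preadipocyte 3, and 2 without any other library. Of the CDK inhibitor genes, Cdkn2c was higher (log2 2.27, adjusted p 0.000601) and Cdkn1b lower (log2 -1.05, adjusted p 0.021), a call that was lost without progenitor 2, progenitor 3, preadipocyte 2 or preadipocyte 3 (adjusted p 0.0738, 0.0878, 0.0699 and 0.0817). Mki67, the gene of the proliferation marker Ki-67, had 77.2, 112 and 121 CPM in preadipocytes and 41.97, 69.9 and 70.7 CPM in progenitors (log2 0.76, SE 0.24, adjusted p 0.0308), and its call was lost without progenitor 1, progenitor 2, preadipocyte 2 or preadipocyte 3 (adjusted p 0.0901, 0.054, 0.100 and 0.140).

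The promoters of mitosis genes were read from RefSeq windows of build GRCm38.p6, which run from 250 bases before to 50 bases after the start site. Genes of mitosis are known to carry CCAAT boxes and the element TTTGAA of the cell cycle genes homology region. Both motifs were searched by exact letters on both strands. Of 24 mitosis genes with a window, 18 (75%) held CCAAT and 18 (75%) held TTTGAA, beside 42.4% and 14.6% of all 11905 tested genes with a window. The same shares of all 32851 windows were 37.4% and 17.9%. Of all genes called higher 44.3% held CCAAT and 16.8% TTTGAA, and of those called lower 41.7% and 14.3%. Nuclear respiratory chain genes, nearly all called higher, held them in 42.6% and 9.84%. The windows of 5 genes are shown to let the layout be compared, 3 of genes described above and those of Ccnb2 and Cdk1, the B-type cyclin and the mitotic kinase, which were chosen after their values were seen. Capitals mark CCAAT or TTTGAA, read on either strand.
Cenpa (chr5:30666636-30666935, + strand): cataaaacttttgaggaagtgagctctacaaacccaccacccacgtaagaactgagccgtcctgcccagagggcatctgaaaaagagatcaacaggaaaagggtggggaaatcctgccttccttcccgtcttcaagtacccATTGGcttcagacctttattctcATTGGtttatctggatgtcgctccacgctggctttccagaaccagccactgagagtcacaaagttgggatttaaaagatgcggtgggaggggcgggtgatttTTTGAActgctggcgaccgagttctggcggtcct
Ube2c (chr2:164769679-164769978, + strand): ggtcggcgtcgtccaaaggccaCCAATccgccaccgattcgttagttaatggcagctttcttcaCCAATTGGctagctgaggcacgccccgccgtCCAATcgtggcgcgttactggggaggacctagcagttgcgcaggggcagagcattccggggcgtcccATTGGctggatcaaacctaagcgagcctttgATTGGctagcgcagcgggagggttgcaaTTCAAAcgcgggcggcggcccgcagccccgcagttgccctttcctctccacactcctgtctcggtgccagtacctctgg
Ccnb2 (chr9:70421505-70421804, - strand): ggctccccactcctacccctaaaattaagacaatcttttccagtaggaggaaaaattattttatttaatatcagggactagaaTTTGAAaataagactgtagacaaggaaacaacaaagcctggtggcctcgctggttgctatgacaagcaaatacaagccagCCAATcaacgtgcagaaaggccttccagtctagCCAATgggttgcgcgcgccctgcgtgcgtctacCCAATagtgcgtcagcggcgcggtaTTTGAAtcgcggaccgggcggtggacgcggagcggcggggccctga
Cdk1 (chr10:69352863-69353162, - strand): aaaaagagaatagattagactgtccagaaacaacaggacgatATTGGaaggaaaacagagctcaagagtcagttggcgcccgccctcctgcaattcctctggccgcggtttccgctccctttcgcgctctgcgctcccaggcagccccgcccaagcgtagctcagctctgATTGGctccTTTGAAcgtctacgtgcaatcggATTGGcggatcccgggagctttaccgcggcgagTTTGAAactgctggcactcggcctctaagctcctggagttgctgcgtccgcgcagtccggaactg
Birc5 (chr11:117848987-117849286, + strand): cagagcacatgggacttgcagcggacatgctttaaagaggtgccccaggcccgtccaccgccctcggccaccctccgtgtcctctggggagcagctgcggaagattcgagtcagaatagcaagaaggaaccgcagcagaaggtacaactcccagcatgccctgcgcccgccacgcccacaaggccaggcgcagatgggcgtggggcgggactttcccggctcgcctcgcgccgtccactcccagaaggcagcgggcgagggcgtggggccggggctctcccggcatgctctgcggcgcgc
In Cenpa the CCAAT boxes begin 109 and 86 bases before the start site and TTTGAA at base 17 after it. In Ccnb2 the 3 CCAAT boxes begin 87, 54 and 21 bases before the start site, and in Cdk1 at 208, 80 and 48 bases before it. Ube2c holds 6 CCAAT boxes, of which a pair at 186 and 183 bases before the start site overlap, while Birc5 holds neither motif in this window. Ccnb2 had 84.7, 132 and 143 CPM in preadipocytes and 46.1, 46.3 and 41.7 CPM in progenitors (log2 1.42, SE 0.19, adjusted p 0.000383), and Cdk1 had 91.8, 127 and 151 CPM in preadipocytes and 58.6, 51.99 and 51.5 CPM in progenitors (log2 1.19, SE 0.18, adjusted p 0.000678).

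**Figure D4:**
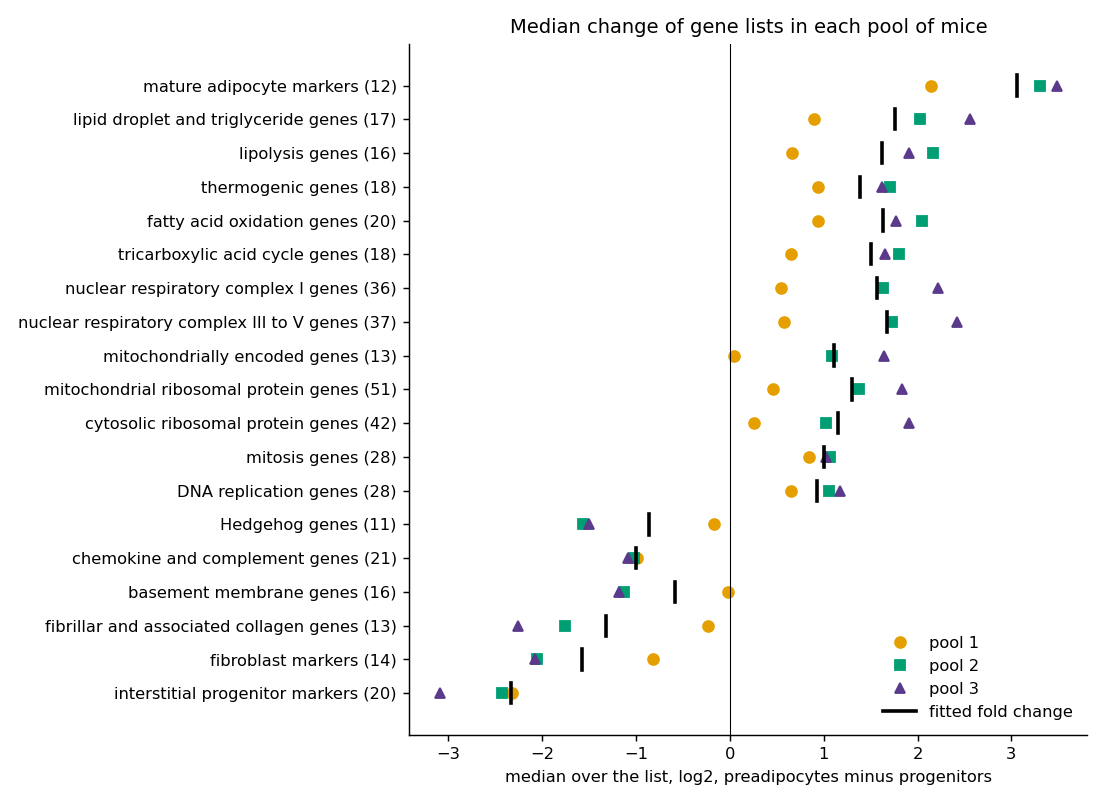
Median difference of preadipocytes minus progenitors (log2) over the genes of 19 lists, in pools 1, 2 and 3 (symbols) and in the fit of all libraries (black bar), with the number of genes in brackets. Mitochondrial, ribosomal and collagen lists lie nearest 0 in pool 1, and the mitosis list and the chemokine and complement list have like values in all 3 pools.

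Markers of other cell types were mostly few in counts. Of all genes tested 16.8% were higher and 16.1% lower, and several of the counts below are not far from these shares. Smooth muscle markers were higher for 3 of 12 and lower for 0, with Actg2 at 25.02, 46.6 and 29.2 CPM in preadipocytes and 5.01, 7.66 and 6.98 CPM in progenitors (log2 2.36, SE 0.34, adjusted p 0.000573), and 1 was higher without progenitor 1, progenitor 3 or preadipocyte 2. Their share of counts was 0.11, 0.0999 and 0.0742% in preadipocytes and 0.0592, 0.0709 and 0.0644% in progenitors. Of 10 pericyte markers Vtn was higher (log2 1.64, adjusted p 0.00439) and 2 were lower, or 1 without preadipocyte 2, led by Abcc9 at 69.5, 32.4 and 20.4 CPM in preadipocytes and 85.8, 163 and 183 CPM in progenitors (log2 -1.82, SE 0.38, adjusted p 0.00375, and -2.49 without preadipocyte 1). Endothelial markers were lower for 4 of 14 with 0 higher, or 2 without progenitor 3 or preadipocyte 2, and beside Tek they included the gene of von Willebrand factor, Vwf (log2 -1.51, adjusted p 0.00817). The mesothelial genes Msln (log2 -2.51, adjusted p 0.00154), Muc16 (log2 -2.93, adjusted p 0.00398) and Upk3b (log2 -1.79, adjusted p 0.00316) were lower, and Upk3b had 20.8, 25.4 and 9.82 CPM in preadipocytes and 37.3, 86.4 and 70.3 CPM in progenitors. Of 6 mast cell markers 3 were higher and 1 lower, or 2 and 1 without progenitor 2, progenitor 3 or preadipocyte 1 and 3 and 0 without preadipocyte 2 or preadipocyte 3. Mast cell proteases were at low levels in both groups, with Cma1 at 5.55, 2.25 and 2.63 CPM in preadipocytes and 0.0516, 0.0576 and 0.433 CPM in progenitors (log2 4.21, SE 0.92, adjusted p 0.00504, and 5.83 without progenitor 3) and Tpsb2 at 2.26, 1.91 and 2.09 CPM in preadipocytes and 0.155, 0 and 0.108 CPM in progenitors (log2 4.43, SE 0.95, adjusted p 0.00439). Both calls were lost in limma-voom with library weights. The lower member was Hdc, the gene of the enzyme that makes histamine, at 1.33, 0.929 and 0.697 CPM in preadipocytes and 1.96, 2.07 and 1.95 CPM in progenitors (log2 -1.01, SE 0.28, adjusted p 0.017), and its call was lost without preadipocyte 2 or preadipocyte 3 (adjusted p 0.0584 and 0.0620). Of 13 haematopoietic and 4 erythroid markers 0 were called in edgeR, in DESeq2 or at an unadjusted p under 0.05 in edgeR, and the haematopoietic markers took 0.00398, 0.00482 and 0.00664% of counts in preadipocytes against 0.00299, 0.00786 and 0.00283% in progenitors. Among 8 epithelial markers Krt14 was the 1 called, lower at 0.492, 0.489 and 0.215 CPM in preadipocytes and 1.24, 2.53 and 2.06 CPM in progenitors (log2 -2.25, SE 0.42, adjusted p 0.00199), and of 11 Schwann and neural markers 1 was called lower and 0 higher.

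The perivascular step was then set beside the inguinal step, ICAM1+ preadipocytes over DPP4+ progenitors from the same pools. In the inguinal step 3384 of 18855 genes (17.9%) were called, 9.34% higher and 8.61% lower. Genes called in both steps numbered 1548, which are 25.0% of the perivascular and 45.7% of the inguinal calls. Of these, 1241 (80.2%) changed in the same direction and 307 in opposite directions. The difference between the steps, tested as the interaction of depot and cell type, was called for 2834 genes (15%), with the perivascular change higher for 1201 (6.37%) and lower for 1633 (8.66%). The sort gates differed between the depots, so depot and gate cannot be told apart. Without preadipocyte 1 or progenitor 1 of the perivascular groups the count was 5231 or 4847, and without ICAM1+ preadipocyte 2 it was 1666.

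Nuclear genes of energy metabolism were among those whose change differed between the depots. The difference was called higher for 14 of 20 fatty acid oxidation genes, 16 of 18 cycle genes, 25 of 36 complex I genes, 26 of 37 genes of complexes III to V and 29 of 51 mitochondrial ribosomal genes, with 0 lower in these lists. In the inguinal step the same lists had medians of 0.032, 0.0083, 0.18, 0.22 and 0.15. Of the 13 genes encoded in mitochondrial DNA none had a called difference in edgeR (median difference 0.64), with the lowest adjusted p for mt-Atp6 (1.22, adjusted p 0.0608). Ucp1 had 0.626 ± 0.0647 CPM in ICAM1+ preadipocytes and 0.509 ± 0.244 CPM in DPP4+ progenitors (SD, n = 3 each), an inguinal change of 0.31 (adjusted p 0.833), and the difference between the steps was 4.49 (SE 0.91, adjusted p 0.00696). Cfd differed most among genes that met the naming rule, by 9.10 (SE 1.47, adjusted p 0.00176), and its inguinal levels were 17.9 ± 12.9 CPM in ICAM1+ preadipocytes and 100.3 ± 91.3 CPM in DPP4+ progenitors. Cidec had 3.41 ± 1.05 CPM in ICAM1+ preadipocytes and a level of 27.7 ± 23.6 CPM, with a wide spread, in DPP4+ progenitors. It went in opposite directions, with -3.005 in the inguinal step (adjusted p 0.0323) and a difference of 6.76 (adjusted p 0.00397). Acvr1c did the same, with -1.94 in the inguinal step (adjusted p 0.0109) and a difference of 5.84 (adjusted p 7.41e-05). Its inguinal levels were low, at 0.326 ± 0.0917 CPM in ICAM1+ preadipocytes and 1.31 ± 0.462 CPM in DPP4+ progenitors.

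Other genes had a lower change in the perivascular step than in the inguinal step. Icam1 had 497 ± 11.1 CPM in ICAM1+ preadipocytes and 61.7 ± 15.8 CPM in DPP4+ progenitors (3.01, adjusted p 2.68e-06), and the perivascular change was lower by 4.29 on the log2 scale (adjusted p 7.98e-06), although this gene chose the inguinal cells. Of 21 chemokine and complement genes 15 rose in the inguinal step, and the difference was called lower for 18, with Il33 at 2.16 in the inguinal step (adjusted p 0.000104) and C4b at 1.22 (adjusted p 0.00839). The complement factor gene Cfd, outside this list, had a difference of 9.10 (adjusted p 0.00176). Of 11 Hedgehog genes 6 rose in the inguinal step and the difference was lower for 8 (median -2.09), among them Cdon, which was not called in the inguinal step (0.018, adjusted p 0.962; difference -1.65, adjusted p 0.00123). Of 19 committed preadipocyte markers 14 rose in the inguinal step, whose preadipocytes were sorted by ICAM1, and the difference was lower for 12. Vit, a matrix gene, had 5.75, 4.2 and 2.84 CPM in perivascular preadipocytes and 27.3, 37.4 and 36.1 CPM in perivascular progenitors, against 27.7 ± 2.19 CPM in ICAM1+ preadipocytes and 2.66 ± 1.33 CPM in DPP4+ progenitors (difference -6.35, adjusted p 7.66e-06). Gdpd2 (-5.30, adjusted p 2.61e-06), Nlgn1 (-5.04, adjusted p 0.000576) and the protease gene Mmp3 (-5.05, adjusted p 0.000314) had differences of like size. The fall of Mmp3 in the perivascular step (log2 -1.36, adjusted p 0.0271) was lost as a call without progenitor 3, preadipocyte 2 or preadipocyte 3 (adjusted p 0.0709, 0.103 and 0.0606) and was -2.20 without preadipocyte 1.

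Progenitor markers were lower in preadipocytes of both depots, with 18 of 20 lower in the perivascular and 19 in the inguinal step. Inguinal progenitors were sorted by DPP4, a member of this list, so cell type and gate cannot be told apart in the inguinal count. Cd55 fell by 3.28 on the log2 scale in the perivascular and by 3.26 in the inguinal step, and the difference of -0.021 (SE 0.18) was not called (adjusted p 0.951). Pi16 and Dpp4 fell more in the inguinal step, by a difference of 2.89 and 1.42 (adjusted p 0.00666 and 0.0207), though Dpp4 chose the inguinal progenitors and its difference lost the call without some single libraries (adjusted p up to 0.0647). Ly6a fell more in the perivascular step, and ICAM1+ preadipocytes had 842 ± 47.6 CPM beside 2011 ± 291 CPM in DPP4+ progenitors (difference -5.46, SE 0.31, adjusted p 3.14e-06). Mitosis genes rose in both, with 28 of 28 called in the inguinal step, and the difference was lower for 10 of them.

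**Figure D5:**
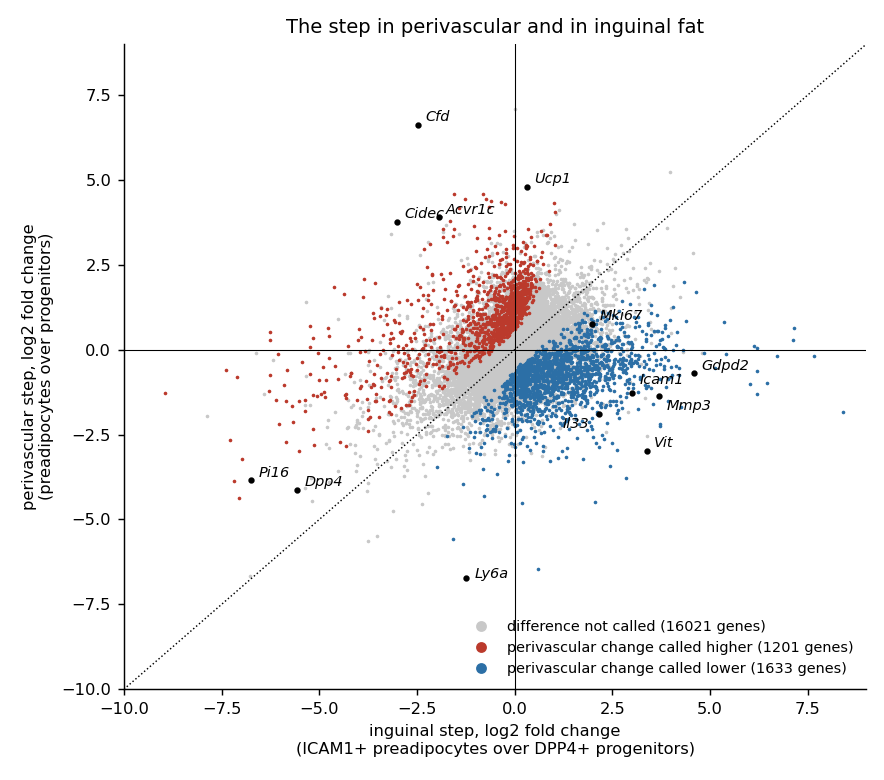
Log2 fold change of the perivascular step (vertical axis) against that of the inguinal step (horizontal axis) for 18855 genes, with the difference between the steps called higher in red (1201), lower in blue (1633) or not called in grey. The dotted line marks equal change. Cfd, Cidec and Acvr1c lie high on the left, and Vit, Gdpd2, Mmp3 and Icam1 low on the right.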

How the data were processed

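The authors deposited raw read counts per gene, and the submitters' processing notes name STAR 2.5.2a, DESeq2 1.26.0 and build mm10. Their normalised and log-scale tables were not used. Which tool counted reads, and whether by strand, is not given in the sources used here. Genes with overlapping exons can share reads (among those named, Adrb3 over 24.9%, Ube2c 22.8%, Fbn1 20.1%, Gdpd2 17.3%, Cib2 15.8%, Angpt1 14.2%, Fgf2 13.2%, Cox5a 12.8%, Ccna2 12.5%, Icam1 11.7% and Chchd10 11.4% of exon length). Groups came from sample titles and descriptions.

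Counts of all 12 libraries were filtered with filterByExpr (minimum count 10), scaled by TMM and fitted with 1 mean per group in edgeR 4.0.16 (R 4.3.3) by quasi-likelihood, with Benjamini-Hochberg adjustment. The fit was also run on simulated counts, in which a gene had the same spread in every library. That run therefore does not cover the unequal spread of these libraries. Alternatives used DESeq2 1.42.0 and limma 3.58.1, other scalings and filters, left-out libraries and a pool term. Same-numbered libraries come from the same mice per the labels, but deviations of same-numbered preadipocytes and progenitors correlated at -0.084, 0.11 and -0.21.

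Members and lists were chosen with earlier results of these data known. Named genes are the 12 highest and 12 lowest changes among called, separated genes of at least 10 CPM, the 5 highest and 5 lowest depot differences by the same rule, 16 fixed genes, up to 4 called members with the largest change per list, and the 5 most abundant genes of each group. Some genes that the rule names are not reported here. Blood cell lists, which held no call, are described as lists. Exon lengths and coordinates come from the GENCODE annotation of mm10, and promoters from RefSeq.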

Additional observations from a re-analysis of the deposited data

Results flagged for a closer look

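The change from progenitor to preadipocyte differed between perivascular and inguinal fat in 2834 genes, by edgeR's test of the interaction of depot and cell type with Benjamini-Hochberg adjustment over all genes. Values below are the perivascular change minus the inguinal change on the log2 scale. They were picked out because that test called the difference, and each compares 3 libraries a group. Depot and sort gate cannot be told apart in them. Of the 76 genes described in the report with a called difference, 17 lost the call without at least 1 library, with adjusted p up to 0.143: Dpp4, C7, Kcnk3, Thrsp, Cib2, Adipoq, Mki67, Ppargc1a, Adrb3, Retn, Eci1, Pmvk, Bmp7, Angpt1, Atf3, Upk3b and Hdc.

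Genes with a higher change in perivascular fat were Cfd by 9.10, Cidec by 6.76, Acvr1c by 5.84, Chchd10 by 5.70, Pck1 by 5.61, Thbs4 by 5.45, Cidea by 5.40, Plin5 by 5.40, Lep by 5.29, Kcnk3 by 4.69, Cox7a1 by 4.54, Ucp1 by 4.49, Thrsp by 3.32, Retn by 3.21, Ppara by 3.01, Cib2 by 3.00, Aqp7 by 2.99, Ppargc1a by 2.94, Adrb3 by 2.58, Adipoq by 2.56 and Acsl1 by 2.47. Further genes with a higher change were Cox5a by 2.79, Uqcrfs1 by 2.75, Acadl by 2.43, Sdhd by 2.30, Idh3a by 2.29, Mrpl34 by 2.12, Ndufc2 by 1.98, Ndufs7 by 1.78, Pdk4 by 1.71, Eci1 by 1.55, Mdh2 by 1.46 and Pmvk by 1.32. The mast cell genes Tpsb2, Cma1 and Hdc differed by 5.17, 4.88 and 1.44, in perivascular fat at levels of a few CPM. Cidea, Plin5 and Lep were low in inguinal fat. Their means were 0.25, 0.259 and 0.186 CPM in ICAM1+ preadipocytes and 0.434, 0.993 and 0.862 CPM in DPP4+ progenitors.

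Some genes that fell in the perivascular step fell more in the inguinal step and so also have a positive difference: Wnt10b by 3.75, Bmp7 by 3.30, Pi16 by 2.89, Akr1c18 by 2.70, Aldh1a3 by 2.53, the mast cell gene Hdc by 1.44 and Dpp4 by 1.42. Hdc was at levels of a few CPM in perivascular fat. Pdgfc, which rose in the perivascular step, had a difference of 2.52.

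Genes with a lower change in perivascular fat were Vit by -6.35, Krt14 by -5.98, Ly6a by -5.46, Gdpd2 by -5.30, Mmp3 by -5.05, Nlgn1 by -5.04, Ren1 by -4.71, Icam1 by -4.29, Ly6c1 by -4.01, C7 by -2.63, Col5a3 by -2.11, Pdgfra by -2.10, Adamts12 by -2.09, Upk3b by -1.98 and Dlk1 by -1.40. So were Il33 by -4.04, C4b by -3.44, Oasl2 by -2.06, Csf1 by -1.35, Fosl2 by -1.31, Irf7 by -1.12 and Atf3 by -0.79. The remaining ones were Aldh1a2 by -4.04, Grem1 by -3.54, Fgf1 by -2.78, Fgf7 by -2.30, Boc by -2.09, Lgr5 by -1.81, Cdon by -1.65, Eng by -1.58, Angpt1 by -1.52, Rarg by -1.39 and Mki67 by -1.22.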

How the results depend on the processing

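The perivascular step gave 6198 called genes, 3168 higher and 3030 lower, and 0 of the called genes that a setting gave a value for had the opposite direction there. The count was 10914 (5617 higher, 5297 lower) in limma-voom with library weights, 9696 (4991, 4705) without both pool 1 perivascular libraries, and 2825 (1603, 1222) with the 6 perivascular libraries alone. Leaving out 1 library at a time gave 3916 to 8000 calls, 1914 to 3978 higher and 1902 to 4176 lower. Pool as a replicate block over all 12 libraries gave 5486 calls (2793, 2693) and ended no call of a named gene, and the block with the 6 perivascular libraries alone gave 85 (34, 51). DESeq2 gave 6953, DESeq2's size factors in edgeR 6195, library totals 6226, no filter on counts 5362 and a stricter filter 5175. The depot difference was called for 8384 genes in limma-voom, 7720 without both pool 1 perivascular libraries, 2158 with the replicate block, and 1666 to 5231 with 1 library left out. Fits with fewer libraries have fewer residual degrees of freedom, and beyond that the cause was not tested.

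Of the 146 named genes called in the perivascular step, 35 kept the call with the block in the 6 libraries alone and 128 in those libraries without it. Ebf2, which was not called, changed sign to 0.042 with library totals and to 0.0051 without preadipocyte 1, and ran from -0.30 to 0.0051 with 1 library left out. Genes near 1 CPM in perivascular fat, such as Grem1, Wnt10b, Sfrp5 and Tpsb2, rest on few counts there, and depth limits their precision.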
